A study of Mus musculus with 2 samples.

Results

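The 124 rows described here are ribosomal RNA (rRNA) rows of a small RNA sequencing experiment on primary murine fibroblasts (PMFs). None of these rows is named as mitochondrial. They were taken by their annotation, not by their values: 108 rows of class rRNA in the RNAcentral table, 14 rows of class rRNA in the Ensembl non-coding RNA table, and the 2 Ensembl rows of Gm42418 and Gm26917, which that table lists as lincRNA although they lie in a ribosomal DNA (rDNA) repeat-like locus. The experiment's 3 tables of reads together hold 4793 rows, of which these 2 tables hold 4576. PMFs were grown from ear clippings of C57BL/6 mice (C57BL/6-J in the study's methods), held for 48 h in the CaMK-II inhibitor KN-93, which arrests them in G1, before a transfection of 24 h. AF25-high cells received a 3rd generation antisense oligonucleotide (3GA-AF25, 200 nM), which raises the C/D box small nucleolar RNA (snoRNA) AF357425. AF25-low cells received a gapmer against the same snoRNA (GM-AF25, 500 nM), which lowers it. Both groups had KN-93, and both had an oligonucleotide, so oligonucleotide chemistry, dose and snoRNA level changed together and cannot be told apart. In such bulk RNA, fewer cells of a type and less RNA per cell cannot be told apart. Each group was 1 library, so no difference below has a replicate check and none was tested. Intervals are exact 95% (Clopper-Pearson) limits that cover counting error only, and "higher" or "lower" with an interval on 1 side of 1 refers to these libraries, not to the conditions.

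Ribosomes are built from 4 cytosolic rRNAs. RNA polymerase I transcribes a long precursor from the rDNA repeats, in which the 18S, 5.8S and 28S rRNAs are separated by transcribed spacers that are cut away and degraded. RNA polymerase III transcribes 5S rRNA from separate gene clusters. In a small RNA library the reads of these genes are short fragments of the mature rRNAs or of their spacers. C/D box snoRNAs, the class AF357425 belongs to, are best known for guiding 2′-O-methylation of rRNA.

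The members held 87460 reads in AF25-high cells against 88218 reads in AF25-low cells, which was 0.303% of each library's estimated total. These totals were estimated from the supplement's RPM by anticodon, at 28856715 reads for AF25-high cells and 29103700 for AF25-low cells. Level is given as RPM, the reads scaled to the library's total. The 1571 of 1596 Ensembl rows that could be named held no row of AF357425, so its own level was not checked here. Of 6 mesenchymal marker miRNAs, 3 had a row (2424 reads in AF25-high cells against 2457 in AF25-low cells). Of 17 markers of epithelium, endothelium, blood, muscle and neurons, 1 had a row, with 6 reads in AF25-high cells against 0 reads in AF25-low cells. The miRBase table, which would hold most of them, was not analysed here. The tRNA rows as a whole stood at 23879 RPM in AF25-high cells against 16237 RPM in AF25-low cells. Scaling by the median ratio of each table moved all log2 ratios by -0.33 in the RNAcentral table and by -0.20 in the Ensembl table. Scaling by the table's own total moved them by -0.17 in the RNAcentral table and by 0.49 in the Ensembl table. Ratios that were rerun under these scalings and crossed 1 are marked as such. Not every row or 2-fold call was rerun. Intervals of ratios, and bounds for rows with 0 reads in a library, are given under the library totals only.

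Most Ensembl reads of the members were assigned to rows annotated at 1 locus on chromosome 17 (GRCm38). Each read was counted at a single place even if it fitted more, so reads from other rDNA repeats may be included. Whether the RNA was transcribed at this locus was not tested. Gm42418 is a transcript of 1831 nt at chr17:39846958-39848788 on the plus strand. RefSeq places the 18S gene Rn18s-rs5 at chr17:39846354-39848202. The stretch used here as 18S, also of 1849 nt, is chr17:39846353-39848201. Gm42418 opens inside this stretch, at position 606, and its first 1244 bases are identical to that stretch up to its 3′ end. The remaining 587 bases, 32.1% of the transcript, lie beyond, where an rDNA unit has its first internal transcribed spacer. Gm26917, of 3329 nt, lies upstream on the same strand at chr17:39843013-39846341 and stops 11 bases before the 18S start, the place of the 5′ external transcribed spacer of an rDNA unit. CT010467.1, of class rRNA, is annotated on the opposite strand (chr17:39846353-39848201), and the 18S stretch was taken as its exact antisense. The GC content was 60.2% for Gm42418, 69.1% for Gm26917 and 55.4% for CT010467.1. The stretches that show these relations follow, 5′ to 3′, from GENCODE M21. In the first, capitals mark the last 40 bases of 18S rRNA and lower case the 40 bases that follow it. The second is the end of Gm26917, and the third is the start of CT010467.1, which is the reverse complement of the 40 capitals of the first.
Gm42418, chr17:39848162-39848241, plus strand: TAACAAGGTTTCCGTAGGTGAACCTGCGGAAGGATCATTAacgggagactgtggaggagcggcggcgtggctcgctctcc
Gm26917, chr17:39846282-39846341, plus strand: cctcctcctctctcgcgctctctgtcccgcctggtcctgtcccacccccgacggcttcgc
CT010467.1, chr17:39848162-39848201, minus strand: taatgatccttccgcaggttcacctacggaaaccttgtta

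With levels scaled to the library totals, the 2 plus-strand genes of this locus lay on opposite sides of a ratio of 1. Gm26917, on the 5′ spacer side, had 8433 reads in AF25-high cells against 2611 reads in AF25-low cells. These are 292 RPM in AF25-high cells against 89.7 RPM in AF25-low cells (ratio 3.26, interval 3.12 to 3.40). Gm42418, on the 18S side, had 18451 reads in AF25-high cells against 25641 reads in AF25-low cells. Its levels were 639 RPM in AF25-high cells against 881 RPM in AF25-low cells (ratio 0.726, interval 0.712 to 0.740). Gm42418 instead came to 1.02 when reads were scaled by the Ensembl table's own sum, so its direction rests on the scaling, whereas Gm26917 was between 2.83 and 4.59 under every scaling run. Of the 436 Ensembl rows that had 20 or more reads in either library, 16.1% were at least 2-fold higher in AF25-high cells and 12.2% at least 2-fold lower. Among the 6 members that reached 20 reads, 1 (Gm26917) was at least 2-fold higher and 1 (n-R5-8s1) at least 2-fold lower.

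The balance between both genes does not depend on any library total. For each read of Gm42418 there were 0.457 reads of Gm26917 in AF25-high cells against 0.102 in AF25-low cells, a difference of 4.49-fold. Gm26917 thus gave 31.4% (30.8 to 31.9%) of the reads of the pair in AF25-high cells against 9.24% (8.91 to 9.59%) in AF25-low cells. Their sum stood close together, with 26884 reads in AF25-high cells against 28252 reads in AF25-low cells and a ratio of 0.960 (0.944 to 0.976), which turns to 1.35 under the table's own total. Per length, Gm42418 stayed above Gm26917 in both libraries, by 349 to 87.8 RPM per kb in AF25-high cells and by 481 to 26.9 RPM per kb in AF25-low cells. Gm42418 was the 6th most abundant of 1596 Ensembl rows in AF25-high cells against the 5th in AF25-low cells. Gm26917 was the 10th in AF25-high cells against the 17th in AF25-low cells. The file gives 1 value per transcript, so it does not show which of the reads of Gm42418 came from 18S and which from the spacer.

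Reads on the antisense row were rare. CT010467.1 had 8 reads in AF25-high cells against 9 reads in AF25-low cells, with a ratio of 0.896 (0.301 to 2.62). Per length this is 0.150 RPM per kb in AF25-high cells against 0.167 RPM per kb in AF25-low cells.

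**Figure D1:**
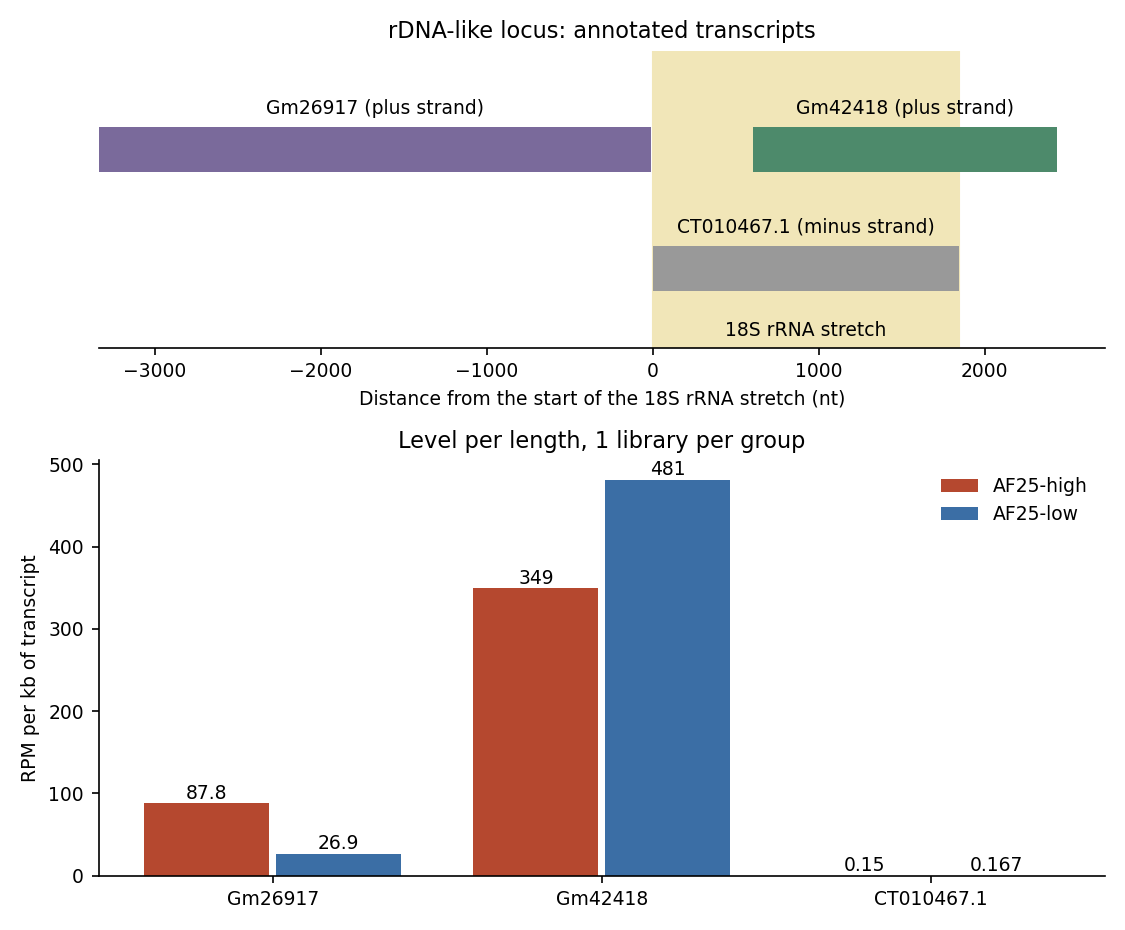
Upper panel: the annotated transcripts of the rDNA-like locus, with distance in nt from the start of the 18S stretch (shaded) on the horizontal axis. Lower panel: level of each in RPM per kb of transcript, 1 library per group (no error bars); Gm26917 stands at 87.8 in AF25-high cells against 26.9 in AF25-low cells, Gm42418 at 349 and 481, and the antisense CT010467.1 near 0 in both.

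The 7 bases AACCCCA are complementary to the guide element that the study places in AF357425. They were searched on the sense strand of every named Ensembl row because Gm42418 holds rRNA. Gm42418 was the only 1 of the 16 Ensembl members with a match, and it had 1, at positions 1595 to 1601 of the 18S stretch and 248 bases before its 3′ end. The same 7 bases occurred in 182 of 1571 named rows (11.6%), and in 30 of 280 (10.7%) whose length was within 500 nt of Gm42418, so a match of this kind was common. No other motif was searched, and the tables hold no measure of methylation. Capitals mark the 7 bases in the stretch of Gm42418 and their reverse complement in AF357425 (73 nt, chr12:109636012-109636084, plus strand).
Gm42418, chr17:39847927-39847973, plus strand: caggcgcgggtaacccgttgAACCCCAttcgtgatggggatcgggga
AF357425: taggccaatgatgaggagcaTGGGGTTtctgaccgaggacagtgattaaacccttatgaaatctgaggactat

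5S rRNA, the RNA polymerase III product that sits in the large ribosomal subunit, was represented among the Ensembl rows by 10 n-R5s genes. The unnamed RNAcentral entries may also hold 5S reads, so the ratios below do not stand for 5S rRNA as a whole. Gm23821 (106 nt) is listed as rRNA and was set with them for its length alone, since 1 of its 89 stretches of 18 bases occurs in another annotated rRNA transcript. The 10 rows are a fraction of the 180 annotated n-R5s transcripts. Together the 11 rows had 46 reads in AF25-high cells against 121 reads in AF25-low cells, 1.59 RPM against 4.16 RPM, a ratio of 0.383 (0.267 to 0.543). Without Gm23821, the 10 n-R5s rows had 46 reads in AF25-high cells against 116 reads in AF25-low cells (ratio 0.400, interval 0.278 to 0.567). Of the 11 (Gm23821 included), 10 had the lower level in AF25-high cells, and 5 of these had no read there. Over all 1596 Ensembl rows, 39.5% were lower in AF25-high cells, 6.02% had no read in AF25-high cells and 10.2% had none in AF25-low cells. Only 2 of the 11 reached 20 reads. The most abundant was n-R5s170 (chr5:22430331-22430443, minus strand), with 18 reads in AF25-high cells against 35 reads in AF25-low cells and a ratio of 0.519 (0.277 to 0.941). Under the Ensembl table's own sum its ratio came to 0.730. Then came n-R5s118 (chr8:123569328-123569446, minus strand), with 15 reads in AF25-high cells against 24 reads in AF25-low cells. Its ratio of 0.630 (0.307 to 1.25) was not distinguishable from 1 at this depth.

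The other n-R5s rows and Gm23821, named after their values were seen, had between 1 and 19 reads in the higher library. For n-R5s77 (chr10:78314165-78314283, plus strand) there were 0 reads in AF25-high cells against 19 reads in AF25-low cells. Counted against a floor of 3 reads for a library at 0, it was at least 6.28-fold lower in AF25-high cells. n-R5s205 (chr2:120640711-120640835, minus strand) had 2 reads in AF25-high cells against 16 reads in AF25-low cells (ratio 0.126, interval 0.0141 to 0.536). The row of n-R5s151 had 0 reads in AF25-high cells against 8 in AF25-low cells, at least 2.64-fold lower in AF25-high cells, and Gm23821 had 0 reads in AF25-high cells against 5 in AF25-low cells. n-R5s101 had 4 reads in AF25-high cells against 9 in AF25-low cells. n-R5s182 had 1 read in AF25-high cells against 3 in AF25-low cells, and n-R5s109 and n-R5s5 each had 0 reads in AF25-high cells against 1 read in AF25-low cells. The exception in direction was n-R5s88, with 6 reads in AF25-high cells against 0 reads in AF25-low cells, at least 2.02-fold higher in AF25-high cells.

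The copies differ in how far a short read can tell them apart. All 102 stretches of 18 bases in n-R5s118 occur in another annotated rRNA transcript, and 3 other transcripts have its whole sequence, all of them on chromosome 8. n-R5s118, n-R5s101 and n-R5s109 lie within 28954 bases there, a span that holds 18 annotated rRNA transcripts. Their sum was 19 reads in AF25-high cells against 34 reads in AF25-low cells, with a ratio of 0.564 (0.304 to 1.02). In n-R5s77, only 31.4% of the 18-base stretches were shared. The 7 n-R5s rows outside chromosome 8 summed to 27 reads in AF25-high cells against 82 reads in AF25-low cells (ratio 0.332, interval 0.207 to 0.519). A read that fits several copies was given by the authors to the copy with the highest expression, so the split among near-identical copies is uncertain.

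**Figure D2:**
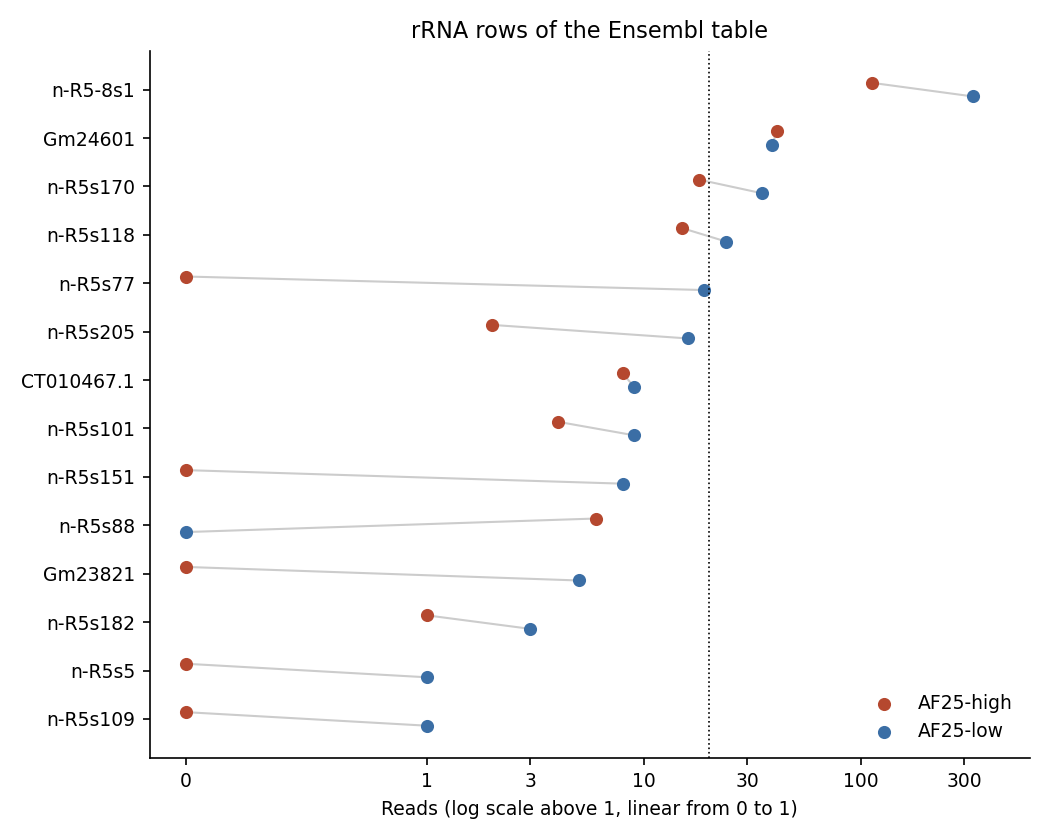
Reads of each of the 14 rRNA rows of the Ensembl table (horizontal axis, log scale above 1 read and linear from 0 to 1) in AF25-high (upper point) and AF25-low cells (lower point); the dotted line marks 20 reads. n-R5-8s1 stands apart with 113 reads in AF25-high cells against 328 reads in AF25-low cells, 5 rows are at 0 in AF25-high cells and n-R5s88 is at 0 in AF25-low cells.

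5.8S rRNA pairs with 28S rRNA in the large subunit. n-R5-8s1, an Ensembl row with a 5.8S name, and Gm24601, an rRNA row of similar length, differed in their ratios. The unnamed RNAcentral entries may also hold 5.8S reads, so these ratios do not stand for 5.8S rRNA as a whole. n-R5-8s1 (148 nt, chr18:73533403-73533550, minus strand) had 113 reads in AF25-high cells against 328 reads in AF25-low cells. This was 3.92 RPM in AF25-high cells against 11.3 RPM in AF25-low cells (ratio 0.347, interval 0.278 to 0.432). It ranged between 0.301 and 0.489 under the other scalings. Gm24601 (143 nt, chr6:94826781-94826923, minus strand) is 41 edits away from n-R5-8s1 and shared none of its 18-base stretches with another annotated rRNA transcript. It had 41 reads in AF25-high cells against 39 reads in AF25-low cells (ratio 1.06, interval 0.667 to 1.69), and the direction of this ratio changed with the scaling. The intervals of the ratios of both genes do not overlap. n-R5-8s1 gave 54.3% (47.3 to 61.2%) of the Ensembl rRNA reads in AF25-high cells against 66.0% (61.6 to 70.2%) in AF25-low cells. Without it, the remaining 13 Ensembl rRNA rows were still lower in AF25-high cells, at a ratio of 0.567 against 0.422 with it. Per length, n-R5-8s1 reached 26.5 RPM per kb in AF25-high cells against 76.1 RPM per kb in AF25-low cells. None of the 14 Ensembl rRNA rows carries a 28S name.

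RNAcentral, a collection of non-coding RNA sequences, held most of the member reads, 69.0% in AF25-high cells against 67.4% in AF25-low cells. Its entries carry only identifiers in these files, so it could not be told which of the rRNAs each one is, nor whether some are mitochondrial. Whether a read can be counted in both tables is not given in the sources used here. One entry, URS000075CEB1, dominated the class and was the most abundant of all 2980 RNAcentral rows in both libraries. It had 33508 reads in AF25-high cells against 24938 reads in AF25-low cells (ratio 1.36, interval 1.33 to 1.38). The ratio was 1.07 under the median of ratios and 1.20 under the table's total, so its size rests on the scaling. This entry made up 55.5% (55.1 to 55.9%) of the rRNA reads in AF25-high cells against 41.9% (41.5 to 42.3%) in AF25-low cells. Next came URS00005EBBB9, with 7285 reads in AF25-high cells against 8641 reads in AF25-low cells (ratio 0.850, interval 0.824 to 0.877).

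**Figure D3:**
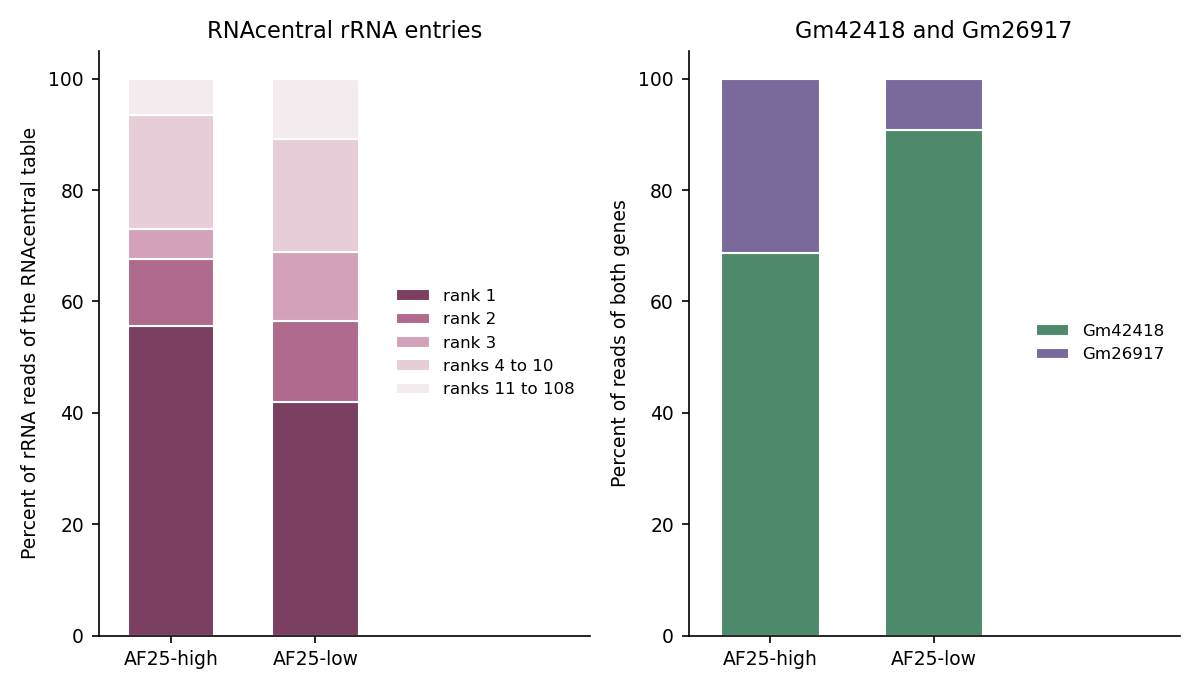
Left: percent of the rRNA reads of the RNAcentral table held by the entries of rank 1, 2, 3, 4 to 10 and 11 to 108, ranked by their reads in both libraries together. Right: percent of the reads of Gm42418 and Gm26917 held by each gene; in AF25-high cells the first entry takes 55.5% and Gm26917 31.4%, in AF25-low cells 41.9% and 9.24%.

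The near-equal sum of the class held unequal parts. All 108 entries summed to 60368 reads in AF25-high cells against 59469 reads in AF25-low cells, and whether this sum lay above or below 1 turned with the scaling (0.812 to 1.03). Without URS000075CEB1, the other 107 entries summed to 26860 reads in AF25-high cells against 34531 reads in AF25-low cells (ratio 0.785, interval 0.772 to 0.797). The 10 most abundant entries, each with 1000 or more reads in the higher library, together came to a ratio of 1.07 (1.06 to 1.09), which was 0.852 under the median of ratios and 0.955 under the table's total, with 3 higher and 7 lower in AF25-high cells. The 18 entries with 100 reads or more but under 1000 were at 0.599 (0.574 to 0.625), with 3 higher and 15 lower. The 13 entries with 20 to 99 reads were at 0.606 (0.520 to 0.707), with 3 higher and 10 lower. The 98 entries beyond the 10 most abundant had 3930 reads in AF25-high cells against 6478 reads in AF25-low cells. The 10 most abundant entries took 93.5% of the rRNA reads in AF25-high cells against 89.1% in AF25-low cells.

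Single entries ranged far more widely than the sum. At 20 or more reads in the higher library, 41 entries remained, with a median log2 ratio of -0.50, while the median over all 369 RNAcentral rows at that depth was 0.22. Over all classes, 42.8% of these rows were lower in AF25-high cells, 14.4% at least 2-fold lower and 26.6% at least 2-fold higher. Among the 41 rRNA entries, 32 (78%) were lower, 13 (31.7%) at least 2-fold lower and 3 (7.32%) at least 2-fold higher. For 22 of the 41 the interval lay wholly below 1, for 6 wholly above 1, and for 13 it held 1. Over all 369 rows at that depth, it lay wholly below 1 for 22.2% and wholly above 1 for 35.8%. The highest ratio at 50 or more reads was that of URS000020BD15, with 3183 reads in AF25-high cells against 609 reads in AF25-low cells, 5.27 (4.83 to 5.76). At the other end URS0000995A39 had 4 reads in AF25-high cells against 60 reads in AF25-low cells, 0.0672 (0.0177 to 0.181). The third most abundant entry was lower too, with 3234 reads in AF25-high cells against 7373 reads in AF25-low cells and a ratio of 0.442 (0.424 to 0.461). The fourth had 2979 reads in AF25-high cells against 2885 reads in AF25-low cells, with a ratio whose interval held 1 (0.989 to 1.10). The remaining 67 entries, under 20 reads, summed to 262 reads in AF25-high cells against 309 reads in AF25-low cells, and 25 of them had no read in one of the libraries, 15 in AF25-high cells against 10 in AF25-low cells. Of all 2611 RNAcentral rows under 20 reads, 6.97% had no read in AF25-high cells and 16.2% had none in AF25-low cells.

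**Figure D4:**
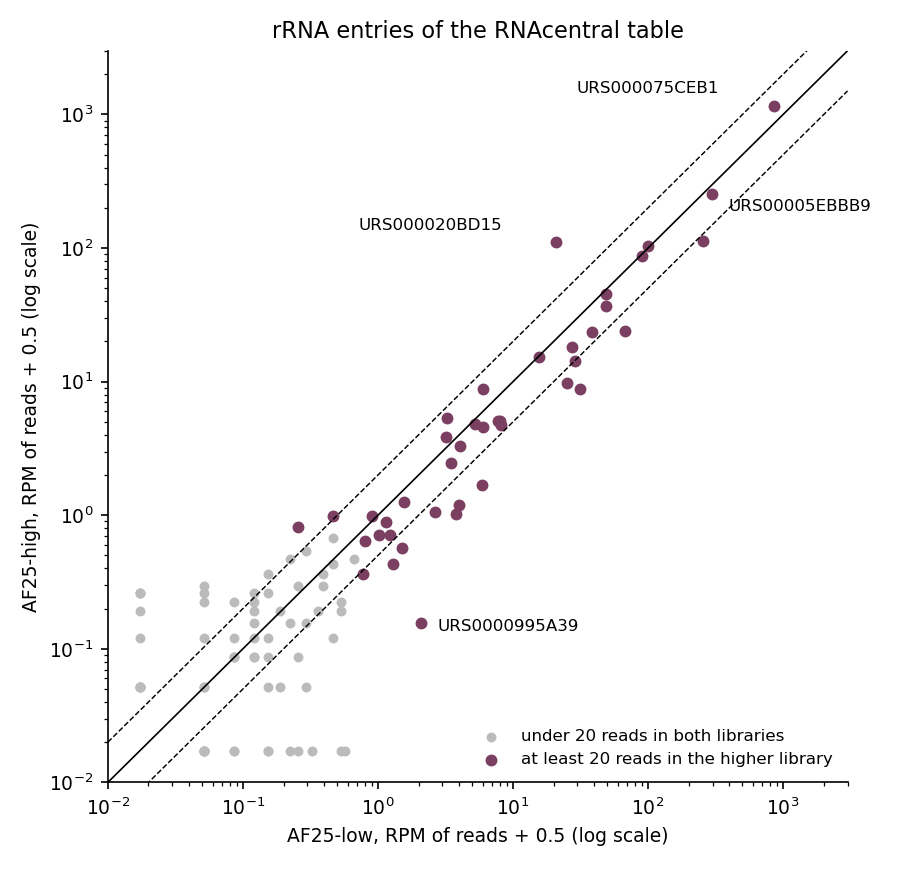
Level of each of the 108 RNAcentral rRNA entries in AF25-high (vertical) and AF25-low cells (horizontal), as RPM of the reads plus 0.5, both on log scales. The solid line marks equal levels and the dashed lines 2-fold differences; of the 41 entries with 20 or more reads, 32 lie below the solid line, and URS000075CEB1, the most abundant, lies above it.

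The 2 named rows of mitochondrial rRNA, which the mitochondrial polymerase makes, were not counted among the members and also held unequal parts. mt-Rnr2 (16S) had 70792 reads in AF25-high cells against 158327 reads in AF25-low cells (ratio 0.451, interval 0.447 to 0.455). mt-Rnr1 (12S) had 4034 reads in AF25-high cells against 2819 reads in AF25-low cells (ratio 1.44, interval 1.38 to 1.51). Their sum came to 0.468 (0.464 to 0.472), below the 1.02 (1.01 to 1.04) of the RNAcentral rRNA entries. Mitochondrial entries may be among the latter, so this is not a contrast of mitochondrial with cytosolic rRNA. Whether the difference of these 2 rows and that of the members go together was not tested.

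Of 15 listed small RNAs that help to process rRNA, 10 had a row and 7 had at least 20 reads, of which 4 were higher and 3 lower in AF25-high cells. This is near the shares over the 436 Ensembl rows at that depth, 52.5% higher and 47.5% lower. Their median log2 ratio was 0.21, against 0.06 over the Ensembl table. Rnu3b3 codes for U3 snoRNA, which binds the 5′ external transcribed spacer and is needed for 18S rRNA, and it had 37574 reads in AF25-high cells against 42169 reads in AF25-low cells. Its ratio was 0.899 (0.886 to 0.911), which turned to 1.27 under the Ensembl table's own sum. Rnu3a, another U3 copy, had 2676 reads in AF25-high cells against 2338 reads in AF25-low cells (ratio 1.15, interval 1.09 to 1.22). Under the median of ratios Rnu3a came to 1.00, so its higher level rests on the scaling. Snord118 (U8), which acts in the maturation of 5.8S and 28S rRNA, had 1560 reads in AF25-high cells against 2529 reads in AF25-low cells (ratio 0.622, interval 0.584 to 0.663). Rmrp, the RNA of RNase MRP, which cuts the precursor in its first internal spacer in yeast, had 6314 reads in AF25-high cells against 16903 reads in AF25-low cells. Its ratio of 0.377 (0.366 to 0.388) made it the 1 of these 7 RNAs that was at least 2-fold lower. Over the 436 Ensembl rows at that depth, 12.2% were at least 2-fold lower. The 2-fold call of Rmrp turns with the scaling, since it came to 0.530 under the Ensembl table's own sum. Snord14d (U14), which acts on 18S rRNA, had 1337 reads in AF25-high cells against 847 reads in AF25-low cells (ratio 1.59, interval 1.46 to 1.74). Snord13 (60 reads in AF25-high cells against 37 in AF25-low cells) and Snord14e (47 and 39 reads) were the other higher RNAs, and the interval of Snord14e held 1. Under the Ensembl table's own sum, which raised every Ensembl ratio, Snord14d came to 2.24 and Snord13 to 2.30. The share of all Ensembl rows that reached 2-fold under that scaling is not given here, so no 2-fold call is made from it.

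**Figure D5:**
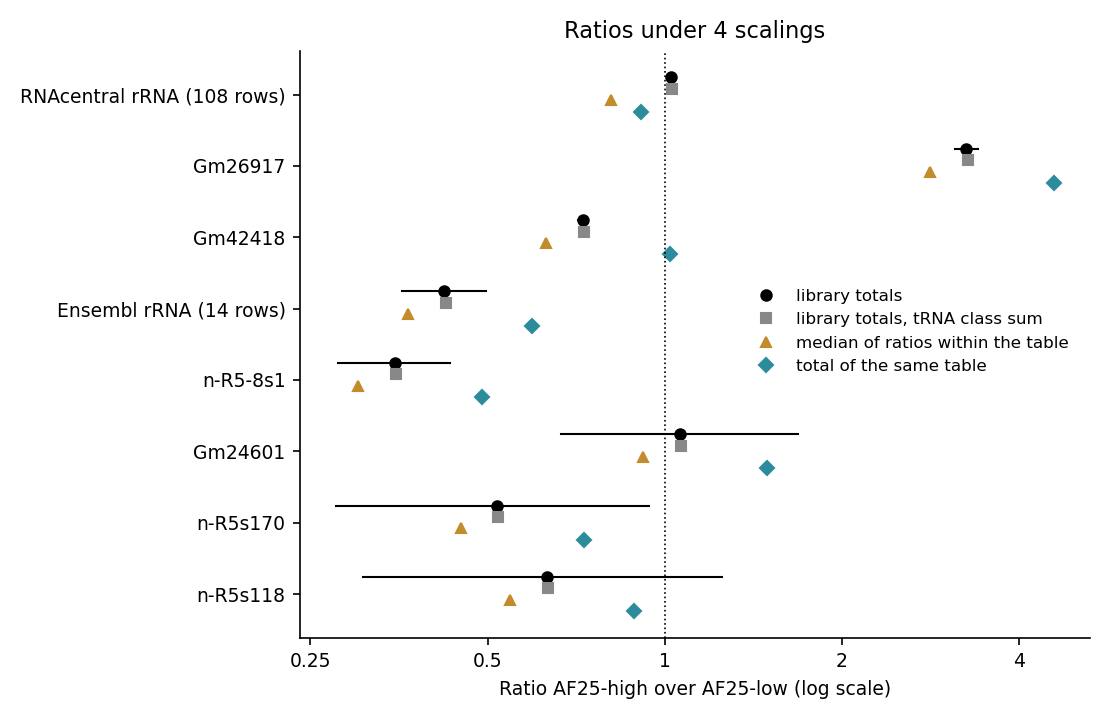
Ratio of AF25-high over AF25-low cells (horizontal, log scale) for the sums and single genes, under 4 scalings; black points are the main values with their 95% counting interval. Gm26917 lies right of 1 and n-R5-8s1 left of 1 under every scaling shown, whereas Gm42418, Gm24601 and the RNAcentral sum cross 1.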

How the data were processed

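Whole-cell RNA from 1 AF25-high and 1 AF25-low culture was sequenced by DNBseq. Per the study's methods, reads were aligned with Bowtie and assigned by sRNAbench to the best-expressed locus (GRCm38, RNAcentral). The values the authors deposited are a size-factor-scaled signal per row: each column is a whole multiple of 1 constant, and dividing by its smallest value gave whole reads for 100% of values (tolerance 1e-06). The tables' names give sense-strand counting and a minimum expression of 5. Totals per library were the median of reads over RPM across 38 anticodons (at least 100 RPM) of the supplement's RPM by anticodon. The deposited fold changes, p-values and adjusted p-values were not used. Rows were named by transcript identifier in GENCODE M21, ratios had exact intervals, and medians used log2 of RPM with 0.5 reads added. Intervals were run on simulated counts with counting error alone and fixed totals (Python 3.11.15, scipy 1.17.1, pandas 2.3.3). They held the set ratio for 96.3% of Ensembl and 95.0% of RNAcentral rows. This checks the calculation only, since variation between cultures and error in the totals were left out. The rows, lists and thresholds (20 reads, 2-fold) were chosen with earlier results of these data known. Named were Ensembl members with at least 20 reads, Gm42418, Gm26917, and of unnamed entries the most abundant and most extreme (at least 50 reads) in each direction. Alternatives were other scalings, minimum reads, the pseudocount and leaving out abundant rows.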

Additional observations from a re-analysis of the deposited data

How the results depend on the processing

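No paired analysis was possible because each group was 1 library and no label pairs the 2 cultures. With 1 library per group there is no spread between replicates, and depth limits every row under about 20 reads. Unnamed RNAcentral entries, the unknown overlap between tables and the single assignment of reads limit what a row stands for, and the cause of each change below was not tested. The summed ratio of the RNAcentral rRNA entries (1.02) turned to 0.812 under the median of ratios, 0.910 under the table's total, 0.785 without the most abundant entry and 0.890 without the 3 most abundant. That of the Ensembl rRNA rows (0.422) stayed below 1, at 0.594 under the table's total and 0.567 without n-R5-8s1. For Gm42418 and Gm26917 together (0.960), the value was 0.833 under the median of ratios, 1.35 under the table's total, 0.726 for Gm42418 alone and 3.26 for Gm26917 alone. Under the table's total, Gm42418 alone reversed to 1.02 and Rnu3b3 to 1.27. The 10 most abundant RNAcentral rRNA entries reversed to 0.852 under the median of ratios and 0.955 under the table's total. All members (1.00) gave 0.816 under the median of ratios, 1.05 under the table's totals, 0.860 without the most abundant row and 0.981 without the 3 most abundant. Of RNAcentral rRNA entries, 3 were at least 2-fold higher, against 2 under the median of ratios and 2 under the table's total. With a minimum of 10 reads there were 5, and with a minimum of 50 there was 1. The median log2 ratio of the RNAcentral rRNA entries (-0.50) was -0.83 under the median of ratios and -0.67 under the table's total. The number that were lower (32 of 41) was 35 under the median of ratios and 34 under the table's total. The share lower over all RNAcentral rows at that depth moved too, from 42.8% to 53.7% under the median of ratios and 47.7% under the table's total. With a minimum of 10 or 50 reads the number of entries tested differs, and 42 and 24 were lower. The number at least 2-fold lower (13) was 16 and 13 under these scalings, and 18 and 10 with these minimums. For 2-fold counts under other scalings, and for all counts at other minimums, the share over all RNAcentral rows is not given here. Those counts show only how the number of entries moved. Of 84 values for 28 single rows and smaller sums, 41 stayed within the main value's counting interval, 39 moved outside it and 4, named above, crossed 1 from an interval that had excluded 1. Among the other values, 3 crossed 1 from an interval that held it: Gm24601 at 0.920 under the median of ratios, and the fourth most abundant RNAcentral rRNA entry at 0.826 under the median of ratios and 0.926 under the table's total.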
